A study of Homo sapiens with 6 samples.

Results

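The interleukin 1 system was examined in HEYA8 cells through 10 genes: the ligands IL1A, IL1B, IL18 and IL33, the antagonist IL1RN, the receptor chains IL1R1 and IL1RAP, the signalling proteins MYD88 and IRAK1, and the processing protease CASP1. They were taken by gene symbol from the 20061 rows of the authors' deposited table; all 10 had a row, and 7 had been tested by the authors. HEYA8 is an established human ovarian cancer line, labelled as a low grade serous carcinoma. All cells carried a lentiviral short hairpin RNA under puromycin and received no further treatment. In 3 samples (shLuciferase) the hairpin was directed at luciferase, which human cells lack, and in 3 samples (shETS1) at the transcription factor ETS1; whether these came from separate cultures is not stated in the labels, so the authors' test may measure technical spread only. The authors combined each group into 1 FPKM value per gene (fragment number corrected for transcript length and library size), so every level below is the authors' group value, without replicate error, and the order of neighbouring levels could not be tested. Pairs of levels give shLuciferase first and shETS1 second.

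As background, IL1A and IL1B encode the alpha and beta forms of the cytokine, which bind the same receptor, IL1R1. The bound receptor recruits the accessory chain IL1RAP, and both chains gather the adaptor MYD88 and the IRAK kinases, from which the signal runs through TRAF6 to NF-kappaB and MAP kinases. IL1RN occupies IL1R1 without signalling. IL1B and IL18 are made as inactive precursors that CASP1 cuts inside inflammasomes, while the IL1A precursor is already active. Macrophages are the best known source of IL1B, and epithelial cells commonly hold IL1A, IL18 and IL33.

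The members were chosen by gene family with their fold changes and q-values in this comparison already known, so those values describe the genes and support nothing further. IL1B was higher in shETS1 and was the 1 called member of 7 tested, at a q-value of at most 0.05; by that rule 0.812% of all 11952 tested genes were called, 0.544% higher and 0.268% lower in shETS1. A q-value limit of 0.1 gave the same 1 member (1.26% of tested genes pass), and at an unadjusted p under 0.05 there were 3 members (6.94% of tested genes pass). The ligand transcripts detected at 1 FPKM or more, IL1B, IL1A and IL18, had the 3 highest log2 fold changes of the tested members. The signalling genes IRAK1 and MYD88 had the lowest. Of the 7, 5 had a log2 fold change above 0, and the median was 0.26, beside 0.02 over all tested genes. The receptor IL1R1, the antagonist IL1RN and the ligand IL33 were near or at 0 in both groups and had not been tested.

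The regulatory sequence just before the start sites of 2 ligand genes is shown beside that of IRAK1, since these members lie at the upper and lower ends of the fold changes. Each line gives the 250 bases upstream of an annotated start (RefSeq, GRCh38.p14), 5′ to 3′ on the gene's strand, and capitals mark every GGAA or its reverse complement TTCC, the 4 letters at the centre of ETS family binding sites. The IL1B window lies at chr2:112836780-112837029 on the minus strand, the IL1A window, before the more upstream of its 2 starts, at chr2:112784494-112784743 on the minus strand, and the IRAK1 window at chrX:154019903-154020152 on the minus strand.
IL1B: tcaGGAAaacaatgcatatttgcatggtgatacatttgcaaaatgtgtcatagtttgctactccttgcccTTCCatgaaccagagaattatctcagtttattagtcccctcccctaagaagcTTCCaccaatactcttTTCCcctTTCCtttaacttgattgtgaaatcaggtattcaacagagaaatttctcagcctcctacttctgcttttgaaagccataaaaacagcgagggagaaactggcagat
IL1A: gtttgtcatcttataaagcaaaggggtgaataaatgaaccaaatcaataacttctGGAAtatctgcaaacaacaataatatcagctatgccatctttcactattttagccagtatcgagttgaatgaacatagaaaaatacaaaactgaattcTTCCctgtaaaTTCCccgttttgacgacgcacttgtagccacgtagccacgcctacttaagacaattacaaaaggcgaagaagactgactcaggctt
IRAK1: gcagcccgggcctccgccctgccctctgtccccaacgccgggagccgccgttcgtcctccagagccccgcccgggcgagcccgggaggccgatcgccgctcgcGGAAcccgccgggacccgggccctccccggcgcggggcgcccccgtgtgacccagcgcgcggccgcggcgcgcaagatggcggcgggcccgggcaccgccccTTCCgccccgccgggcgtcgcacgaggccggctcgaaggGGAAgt

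The IL1B window held 5 such matches, and the IL1A and IRAK1 windows 3 each. Over all 15 windows of members the number ran from 0, in a window of IL33, to 8, in a window of IL1RN. A second IL1RN window held 7, but it overlaps the one with 8 and shares matches with it. Of the others, 2 IL1R1 windows held 5 each, and the other IL1A window held 2. The median over 35116 RefSeq windows of the same length was 3, and 92.7% of them held at least 1. RefSeq windows were found for 8 of the 10 members (15 windows, since some genes have several starts). Neither of the longer ETS cores searched on both strands, CCGGAAGT and AGGAAGT, occurred in any of the 15, and 3.42% and 7.01% of all windows held them. The NF-kappaB consensus was in none either (6.88% of all windows). The AP-1 motif TGANTCA occurred in the printed IL1A window, 12 to 6 bases before the start, in a second IL1A window that overlaps it, and in 1 IL1RN window, against 6.57% of all windows. These are matches of letters only. The windows differed in base composition: 40.0% of the IL1B bases, 37.6% of the IL1A bases and 82.4% of the IRAK1 bases were G or C, and the median over all windows was 58.0%.

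IL1B (hg19 chromosome 2, 113587337 to 113594356) had 29.9 FPKM under the luciferase hairpin and 69.9 FPKM under the ETS1 hairpin. The level after ETS1 knockdown was 2.34-fold higher, and in the authors' deposited table the log2 fold change was 1.23 and the q-value 0.00964. In RNA of whole cultures, more IL1B RNA per cell and more cells that make it cannot be told apart. IL1B ranked 34 from the top by log2 fold change among the 10676 tested genes with a mean of at least 1 FPKM. In the control cells 76.4% of tested genes had a lower FPKM than IL1B. ETS1 itself, the target of the hairpin, was at 41.4 and 17.9 FPKM in the same comparison.

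IL1A (chromosome 2, 113531492 to 113542971) lies 44.4 kb from IL1B and had 12.0 FPKM under the luciferase hairpin and 20.2 FPKM under the ETS1 hairpin. The level was 1.68-fold higher, with a log2 fold change of 0.75, but in the authors' deposited table the q-value was 0.152, which did not pass. No gene in the table was called at less than 1.83-fold. Per transcript length, IL1B was the more abundant of the pair, with an IL1B to IL1A ratio of FPKM levels of 2.49 in the control and 3.47 in shETS1.

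IL18 (chromosome 11, 112013974 to 112034840), which encodes the interferon-gamma-inducing ligand of the family, was at 12.4 and 18.4 FPKM. Its log2 fold change was 0.56, a level 1.48-fold higher in shETS1, and in the authors' deposited table the q-value was 0.60. In the control its FPKM level was close to that of IL1A, 12.4 against 12.0. IL33 (chromosome 9, 6215786 to 6257983), an alarmin that signals through the receptor IL1RL1, was listed at 0 FPKM in both groups. Of the 6 other ligand genes of the family, none was tested: IL36A, IL36B, IL36RN and IL1F10 were listed at 0 in both groups, IL36G at 0 and 0.0169 FPKM and IL37 at 0.0937 and 0.344 FPKM. Transcripts of the family's ligands were thus read mainly from IL1A, IL1B and IL18.

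**Figure D1:**
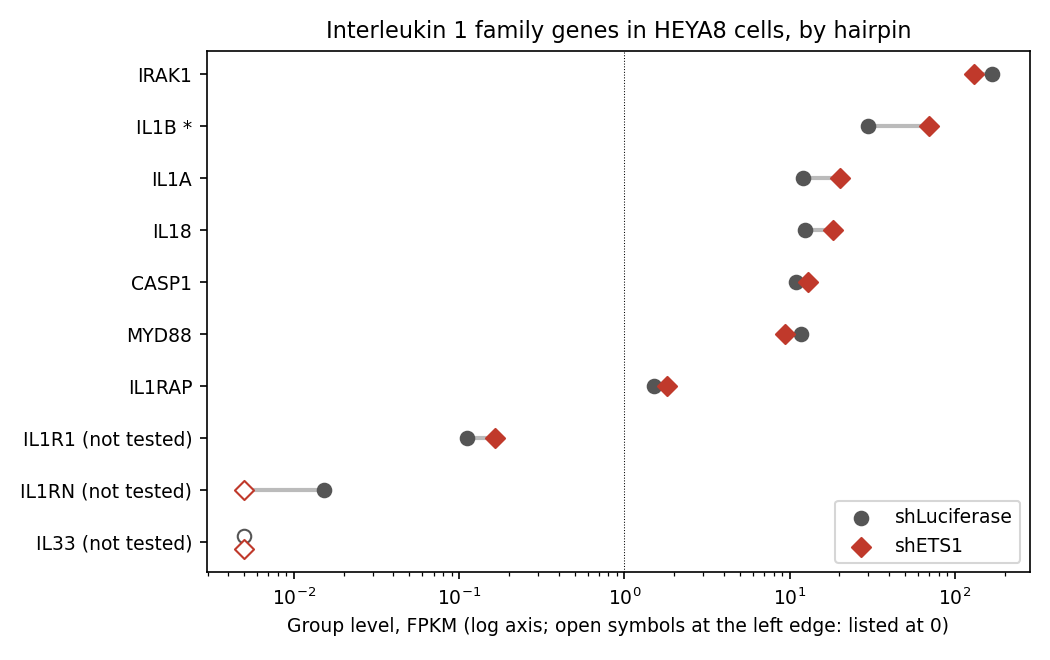
Level of each member in FPKM (horizontal log axis) as the authors' group value of shLuciferase (grey circles) and shETS1 (red diamonds); open symbols stand for genes listed at 0, the dotted line is 1 FPKM and the asterisk marks the called gene. IL1B moves from 29.9 to 69.9 FPKM, IRAK1 is the most abundant member in both groups, and IL1R1, IL1RN and IL33 lie below 0.2 FPKM.

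Transcripts of the IL1A and IL1B receptor itself were low. IL1R1 (chromosome 2, 102686836 to 102796334), the signalling receptor for both IL1A and IL1B, was listed at 0.111 FPKM in the control and at 0.165 FPKM after ETS1 knockdown and was marked as not tested. IL1RAP (chromosome 3, 190231840 to 190374986), the accessory chain shared by several receptors of the family, was at 1.52 and 1.82 FPKM, with a log2 fold change of 0.26; in the authors' deposited table the q-value was 1.00. The FPKM ratio of IL1RAP to IL1R1 was 13.7 in the control and 11.0 in shETS1. Because IL1R1 was near 0 in both groups, the size of this ratio and its difference between groups are uncertain. Per transcript length, the accessory chain was thus the more abundant of the receptor pair in both groups.

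Of 9 further receptors and decoys, 7 were not tested and none of the other 2 was called. IL1R2, the decoy receptor, was at 0.0312 and 0.0285 FPKM, IL18R1, which binds the IL18 protein, at 0.175 and 0.0452 FPKM, and IL1RL1 at 0 and 0.00699 FPKM. IL18R1 and IL1RL1 share a locus in the table, so their reads are uncertain. The inhibitory receptor SIGIRR was the most abundant of the 9, at 27.7 and 25.5 FPKM. IL18BP, a secreted decoy for the IL18 protein, was at 1.12 and 0.954 FPKM, and its locus overlaps 4 other rows. IL1RN (chromosome 2, 113875470 to 113891593), the natural antagonist of IL1R1, was listed at 0.0152 FPKM in shLuciferase and at 0 in shETS1 and was not tested; no fold is given.

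IRAK1 (chromosome X, 153275957 to 153285342), the kinase that relays the signal from MYD88 to TRAF6, was the most abundant member with 168.6 FPKM under the luciferase hairpin against 130.6 FPKM under the ETS1 hairpin. Its level was 1.29-fold lower in shETS1, a log2 fold change of -0.37, and in the authors' deposited table the q-value was 0.978, which did not pass. In the control 95.0% of tested genes had a lower FPKM. MYD88 (chromosome 3, 38179969 to 38184512), the adaptor at the receptor's cytoplasmic side, was at 11.7 and 9.35 FPKM, a log2 fold change of -0.32, and in the authors' deposited table the q-value was 1.00. Neither difference passed the authors' test.

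Among 19 further adaptors and kinases, 17 were tested and none was called, with 11 log2 fold changes above 0 and 6 below. Their median log2 fold change was 0.20, against 0.02 over all tested genes; with the trend on transcript GC content removed, it was 0.054 over the 15 with a value. UBE2V1, a partner of the ubiquitin-conjugating enzyme UBE2N in TRAF6 signalling, was at 98.5 and 118.1 FPKM, and its locus overlaps other rows. ECSIT, an adaptor that binds TRAF6 and whose locus also overlaps another row, was at 78.2 and 61.7 FPKM. IRAK4, the kinase that acts before IRAK1, was at 2.13 and 2.55 FPKM, and TRAF6, the ubiquitin ligase after IRAK1, at 1.38 and 1.74 FPKM. The FPKM ratio of IRAK1 to IRAK4 was 79.2 in the control and 51.1 in shETS1. IRAK2, a relative of IRAK1 that sustains the signal, had the highest log2 fold change of these genes, 0.68, at 3.57 and 5.72 FPKM; in the authors' deposited table the q-value was 0.367.

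CASP1 (chromosome 11, 104896237 to 104972158) was at 11.0 and 12.9 FPKM, a log2 fold change of 0.23, and in the authors' deposited table the q-value was 1.00. The table gives the same locus to CARD17 and to CARD16, a CASP1-related decoy at 7.87 and 8.46 FPKM, so the split of reads between these related genes is uncertain. Of 18 further genes for processing and release, 12 were tested and none was called. Their median log2 fold change was -0.09, beside 0.02 over all tested genes. The range ran from -0.56 (NLRP1) to 0.49 (CASP8), with 4 values above 0 and 8 below. PYCARD, the adaptor that joins inflammasome sensors to CASP1, was low at 0.197 and 0.0834 FPKM and was not tested. The sensor NLRP3 was at 5.65 and 4.64 FPKM and the sensor NLRP1 at 3.67 and 2.49 FPKM, and in the authors' deposited table the q-value of NLRP1 was 0.579.

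CAPN2 and CAPN1, calcium-dependent calpain proteases of the kind that trims the IL1A precursor, were at 136.1 and 130.1 FPKM and at 73.0 and 63.2 FPKM. S100A13, a protein described in the release of the IL1A protein, was the most abundant gene of this list at 836.5 and 849.5 FPKM, with a locus that overlaps other rows. CASP4, the neighbour of CASP1 that acts in the non-canonical inflammasome, was at 85.5 and 74.5 FPKM, and the pore-forming protein GSDMD at 128.1 and 118.0 FPKM. The FPKM of CASP4 was 7.77 times that of CASP1 in the control and 5.80 times in shETS1. These ratios are uncertain, since CASP1 shares its listed locus with CARD16 and CARD17.

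Several genes known to respond to interleukin 1 were higher in shETS1. Of 19 listed, 16 were tested, 8 were called higher in shETS1 (IL8, BIRC3, ICAM1, MMP1, CXCL1, CXCL2, CXCL3 and CSF3) and none was called lower, beside 0.544% of all tested genes called higher. Their median log2 fold change was 0.97, beside 0.02 over all tested genes, and the range ran from -0.69 (CCL20) to 2.33 (CSF2, not called). The list was drawn up with the calls of several of these genes known, so its count is not independent evidence, and the 4 CXC chemokines among them (IL8 and CXCL1 to CXCL3) are neighbours on chromosome 4, between 74606223 and 74964997. These genes also respond to other stimuli of NF-kappaB, and whether any of them followed from the IL1B level was not tested.

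Among the called responders, the chemokine IL8 was at 6.77 and 23.3 FPKM and the apoptosis inhibitor BIRC3 at 1.40 and 4.45 FPKM. The most abundant one was the chemokine CXCL1, at 107.0 and 214.4 FPKM. Others on the list were not called: the feedback inhibitor TNFAIP3 was at 1.82 and 1.70 FPKM, the cytokine LIF, whose locus overlaps another row, at 5.78 and 5.41 FPKM, and the mitochondrial superoxide dismutase SOD2 at 32.0 and 37.0 FPKM. The prostaglandin synthase PTGS2 and the chemokine CCL2, classical responders, were at or under 0.0308 FPKM in both groups. The inhibitor NFKBIA was at 23.7 and 37.9 FPKM and the cytokine IL6 at 0.289 and 0.517 FPKM, also not called. In all, 13 of the 16 tested responders had a log2 fold change above 0 and 3 below, and 10 had an unadjusted p under 0.05, beside 6.94% of all tested genes. With the GC trend removed, the median of the 13 with a value was 0.94.

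**Figure D2:**
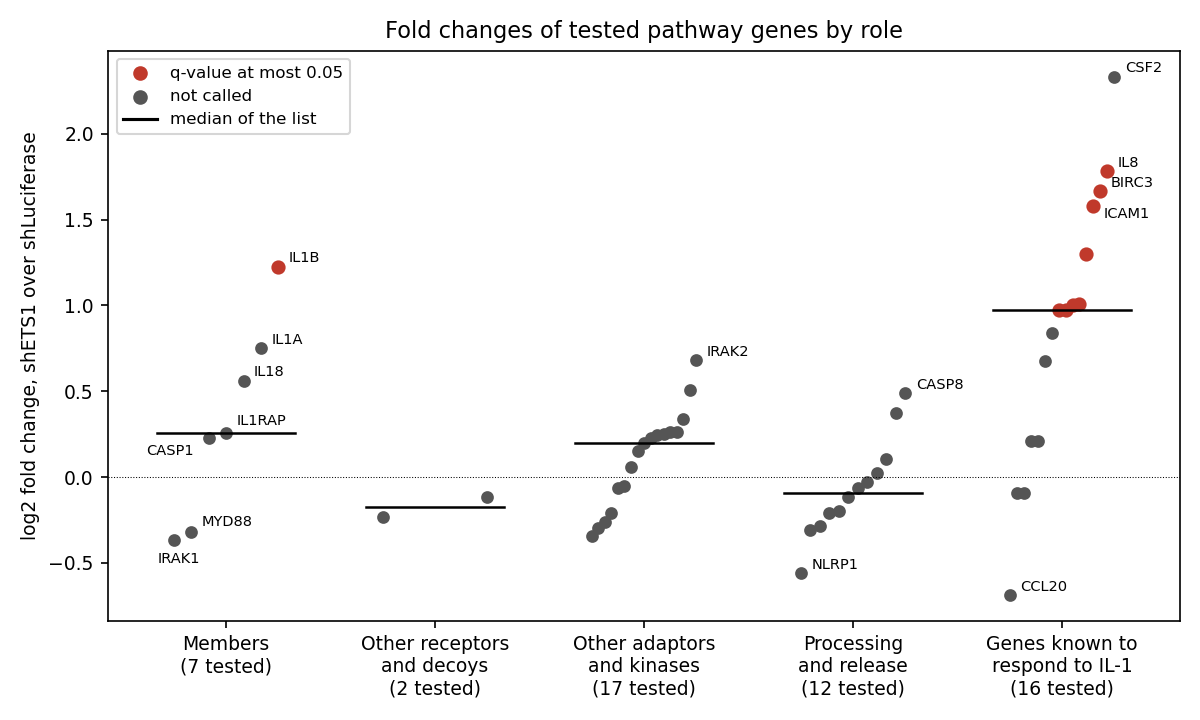
Tested genes by role, with the log2 ratio of shETS1 to shLuciferase on the vertical axis; red points were called at a q-value of at most 0.05, grey points were not, and black bars are list medians. IL1B is the called member at 1.23, none of the receptor, adaptor or processing genes was called, and the responding genes have a median of 0.97.

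The position of the members was compared next, using the loci of the deposited table on hg19. The ligand cluster on chromosome 2 (113531492 to 113891593) holds 9 family genes over 360.1 kb, of which 2, IL1A and IL1B at one end, reached 1 FPKM. The highest level among the other 7 was 0.344 FPKM, that of IL37 in shETS1. Immediately outside the cluster, CKAP2L, a mitotic spindle protein gene, was at 8.16 and 10.4 FPKM. Its listed locus, 9.2 kb from IL1A, is shared with NT5DC4, so its reads and exact distance are uncertain. Beyond IL1RN, PSD4 was at 7.46 and 7.49 FPKM and the lineage factor PAX8 at 79.7 and 76.8 FPKM. None of these neighbours was called.

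The receptor cluster, also on chromosome 2 (102608306 to 103069024), holds IL1R1 and 5 other receptor genes over 460.7 kb; none reached 1 FPKM or was tested, and the highest level was 0.175 FPKM. Over all members, 81 other rows lay within 300 kb, 44 of them tested. The 1 call among these was CLDN1, a tight junction gene 191.6 kb from IL1RAP, at 16.4 and 32.0 FPKM; in the authors' deposited table the q-value was 0.0242. The median log2 fold change of the 44 was 0.04, close to the 0.02 over all tested genes. Near IL18, the tested genes SDHD, TIMM8B and PTS were at 51.7 and 64.5 FPKM, 62.1 and 74.9 FPKM, and 16.0 and 24.4 FPKM. Near IRAK1, HCFC1 was at 32.4 and 23.6 FPKM and TMEM187 at 8.05 and 10.6 FPKM. Beside MYD88, ACAA1 was at 37.6 and 33.8 FPKM and OXSR1 at 13.7 and 12.3 FPKM. None of these was called. TIMM8B shares its listed locus with C11orf57, and ACAA1 with DLEC1, so their reads are uncertain.

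**Figure D3:**
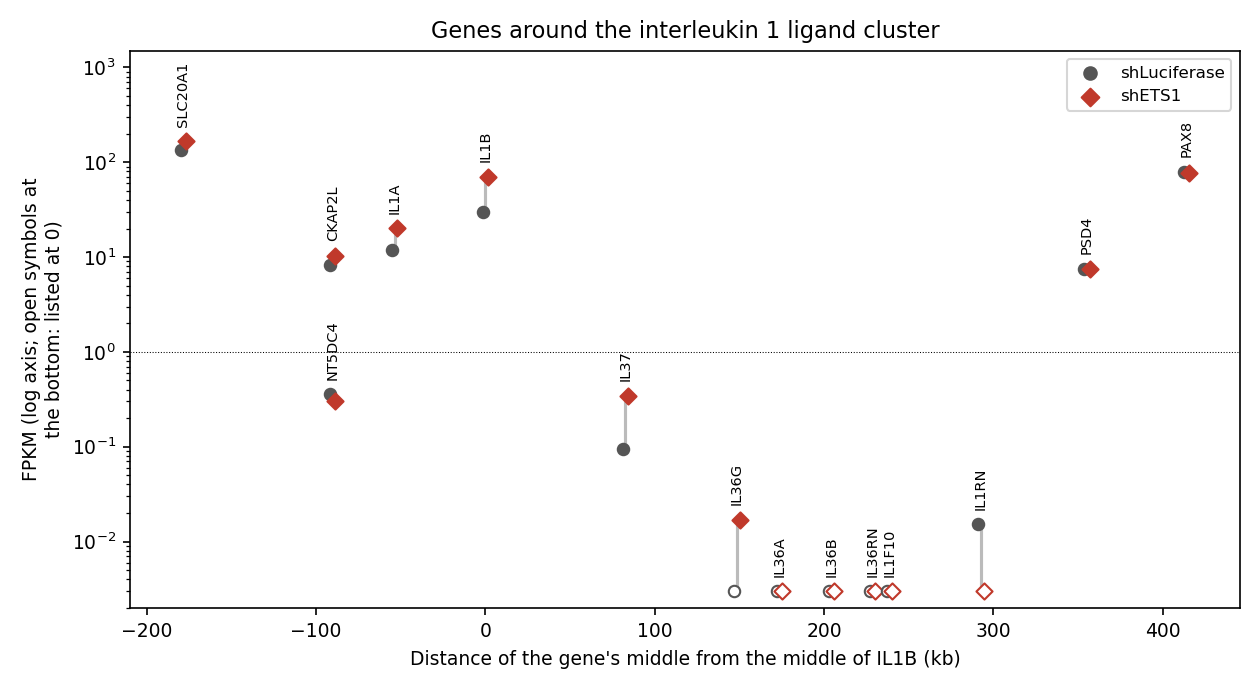
FPKM (vertical log axis) of genes around the ligand cluster against the distance of each gene's middle from that of IL1B in kb; grey circles are shLuciferase, red diamonds shETS1, and open symbols at the bottom genes listed at 0. IL1A and IL1B stand at 12.0 to 69.9 FPKM, the 7 other family genes below 0.4 FPKM, and beyond IL1RN PSD4 is at 7.46 and 7.49 FPKM and PAX8 at 79.7 and 76.8 FPKM.

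Base composition moved with the fold changes. The transcripts of the members ranged from 34.7% GC (IL33) to 63.0% (IRAK1), with 39.1% for IL1A, 45.7% for IL1B, 42.3% for IL18 and 53.1% for MYD88, against a median of 49.9% for tested genes with a mean of at least 1 FPKM. In all such genes, the decile lowest in GC had log2 fold changes with a median of 0.24, and the decile highest in GC of -0.16. After a cubic trend on GC content was removed, the log2 fold change was 1.17 for IL1B, 0.56 for IL1A, 0.44 for IL18, -0.26 for MYD88 and -0.22 for IRAK1. The values of CASP1 and IL1RAP shrank to 0.08 and 0.12. The directions of the 7 tested members were the same, and the median of the 7 went from 0.26 to 0.12.

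**Figure D4:**
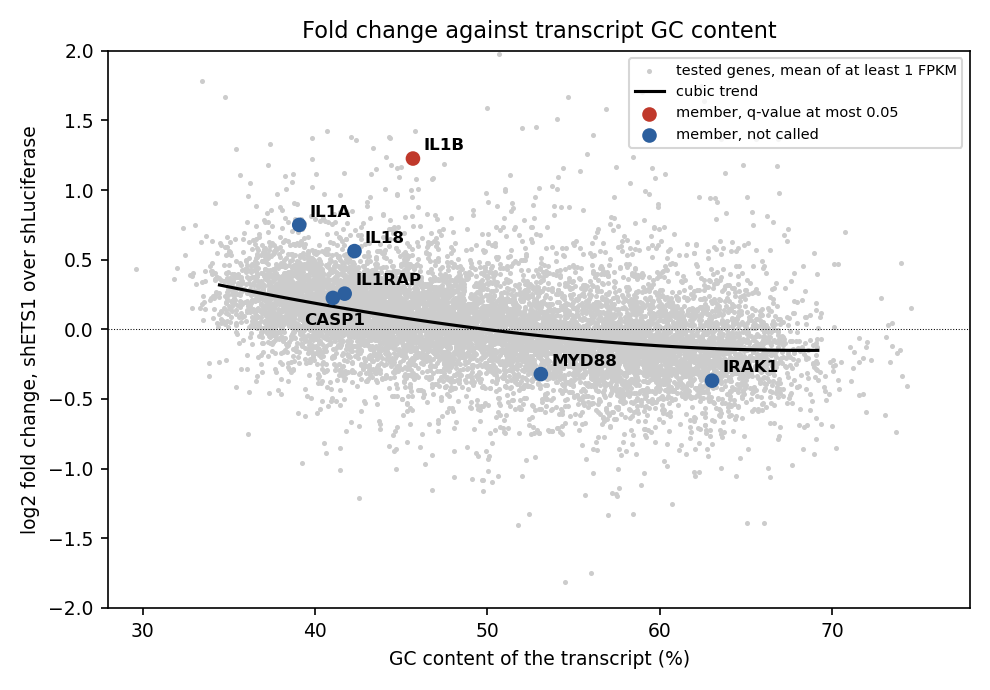
Vertical axis: log2 ratio of shETS1 to shLuciferase, against transcript GC content in percent (horizontal axis) for tested genes with a mean of at least 1 FPKM (light grey), with the cubic trend (black) and the 7 tested members (red: called, blue: not called); 4 genes lie outside the axes. IL1B, at 45.7% GC, lies above the trend at 1.23, and IRAK1, at 63.0% GC, below it at -0.37.

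Markers of other cells were checked because leukocytes are the usual source of IL1B. Of 10 leukocyte markers, PTPRC, TYROBP, CD3E and MS4A1 were listed at 0 in both groups. CD14, a monocyte marker, was at 0.688 and 0.525 FPKM, and CD79A at 0.357 and 0.266 FPKM, both lower in shETS1. LYZ was at 0.672 and 0.781 FPKM, CSF1R at 0.0918 and 0.103 FPKM and ITGAM at 0.0389 and 0.0781 FPKM, all higher in shETS1. Of the 10, 3 were tested (CD14, LYZ and CD68), and none of these was called. The other 7 were not tested, so the differences of CD79A, CSF1R and ITGAM have no test behind them. The summed level of the 10 was 50.4 FPKM in shLuciferase and 48.9 FPKM in shETS1, of which CD68, also made by many other cells, gave 48.5 and 47.1 FPKM. Of 4 keratinocyte markers, KRT5 and KRT1 were at 0 in both groups and KRT10 was at 8.75 and 10.1 FPKM. Of 6 fibroblast markers, COL3A1 and DCN were at 0 in both groups, and COL1A1 was called higher at 1.29 and 3.75 FPKM. FAP, tested and not called, was the most abundant of the 6 in both groups and was also higher in shETS1. The sum of the list was 5.99 and 10.2 FPKM, most of it from FAP. The part of this list in the IL1B result was not tested. Of 4 endothelial markers, 3 had a row, and their sum was 0.604 and 0.532 FPKM. The carcinoma markers PAX8, KRT8 and KRT18 were abundant, with KRT8 at 1913 and 1288 FPKM and KRT18 at 2044 and 1498 FPKM. KRT8 and KRT18 share a listed locus, so the split of their reads is uncertain. The 7 markers of that list summed to 4044 and 2870.4 FPKM, most of it from KRT8 and KRT18. EPCAM was low at 1.71 and 1.82 FPKM, WT1 was at 3.58 and 3.13 FPKM, SOX17 at 1.15 and 2.38 FPKM, and MUC16 was at or near 0. None of the 6 tested markers was called; in the authors' deposited table SOX17 had an unadjusted p of 0.00145 and a q-value of 0.110.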

How the data were processed

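Polyadenylated RNA was sequenced in 3 samples per hairpin. Build hg19, Cufflinks 2.1.1, TopHat2 2.0.7, SAMtools 0.1.18 and Bowtie2 2.0.6 are named in the submitters' processing notes, without roles; the annotation is not given in the sources used here. The authors deposited, per the file headers, 1 FPKM value per gene and group with a log2 fold change, a p-value, a q-value and an unused test score. The table holds no value per sample, so spread and depth are unknown, and the edgeR or limma tests foreseen for sample values were not run. No strand-marking step is described in the labels' protocols, so overlapping genes may share reads.

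The members and all lists were chosen with earlier results of these data known. A gene is called where the deposited q-value is 0.05 or less. The 71 further genes of the pathway stand on 5 lists by role. Named are the 10 members, called pathway genes, the 2 most abundant genes of each role, and, within 300 kb of a member, called genes and the nearest tested genes; IRAK2, NLRP1 and some others were chosen after their values were seen. GC content came from GENCODE 29 (GRCh38), by symbol, for 10408 of 10676 tested genes with a mean of at least 1 FPKM, from the transcript with the longest coding sequence. Promoter windows are RefSeq's (GRCh38.p14). The adjustment, the GC trend and the motif search were tested on simulated data. Python 3.11.15, numpy 2.4.6 and pandas 2.3.3 were used.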

Additional observations from a re-analysis of the deposited data

How the results depend on the processing

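The call of IL1B remained at a q-value of at most 0.1 and when only genes with a mean of at least 1 FPKM were adjusted again; at an unadjusted p under 0.05 the members called numbered 3 (IL1A, IL1B and IL18), where 6.94% of all tested genes pass. Of the 71 pathway genes, 47 were tested, and 8 were called in the first 2 settings too. Over all tested genes, 0.812% passed a q-value of 0.05 and 1.26% one of 0.1. All 8 stand on the list of genes known to respond to interleukin 1, drawn up with several calls known. Outside that list, 0 of 31 tested genes were called. At an unadjusted p under 0.05, 12 of the 47 passed, 2 of them outside that list. None of the 8 members with a finite ratio changed direction in the settings tried; IL1RN and IL33, listed at 0 in 1 or both groups, were not run. A pseudocount of 1 FPKM took the log2 ratio of IL1R1 from 0.57 to 0.069 (0.33 with 0.1 FPKM) and that of IL1RAP from 0.26 to 0.16. With the trend on GC content removed, the log2 ratio was 0.12 for IL1RAP, 0.076 for CASP1 and -0.22 for IRAK1, and the median of the 7 tested members fell from 0.26 to 0.12. In a setting chosen after seeing the data, removal of the same trend moved the median of the adaptor and kinase list to 0.054, of the receptor and decoy list to -0.048 and of the processing and release list to -0.049. The other 34 recomputed values stayed within 1.5 times the deposited one. No interval can be set on any of them, because the spread between samples and the depth are unknown. No paired analysis was possible because the table holds no columns per replicate, and for the same reason no replicate could be left out.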
